A study of Mus musculus with 8 samples.

Results

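Zinc, iron, and copper handling genes were followed in colonic epithelial cells of mice that carried 1 of 2 strains of the gut symbiont Bacteroides thetaiotaomicron (B. theta). They were taken by symbol and comprise the zinc transporter families Slc30a and Slc39a, the metallothioneins Mt1 and Mt2 with their regulator Mtf1, and genes for the uptake, export, storage, and control of iron and copper. Of 40 genes so named, 39 had at least 1 Affymetrix probe set that names a single gene, out of 18193 such genes on the array. The light chain of ferritin, Ftl1, was left out because its 3 probe sets also name another gene. The 39 genes had 74 probe sets, and each gene was represented once, by whichever of its probe sets had the largest SD across the 8 arrays.

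Both groups were male C57BL/6 WT mice kept under SPF conditions, given metronidazole and ciprofloxacin, colonized at 8 wk of age, and sampled at 12 wk of age, after 4 wk of colonization. The BTWT group (4 mice) received WT B. theta, and the BTΔMAFF group (4 mice) received the mutant that lacks the MAFF locus, the paired genes maffC and maffD. Living EpCAM+ CD45- cells were sorted, their RNA was amplified, and 1 array was hybridized per mouse. The mutant is a bacterial strain, and no mouse gene was altered. The deposited values were on the log2 scale with the median of the 8 arrays subtracted for each probe set, so they gave differences between mice and no level. How strongly a gene was expressed, and whether it lay above background, could therefore not be read, and genes were not ranked against each other by level. In sorted bulk cells, fewer cells of a type and less RNA per cell cannot be told apart.

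Metals are essential cofactors that are toxic in excess, and cells hold them within bounds by paired importers and exporters. Slc39a proteins (ZIP) bring zinc into the cytosol, Slc30a proteins (ZnT) remove it to the outside or into vesicles, and metallothioneins bind what is free. The transcription factor MTF-1 senses zinc and turns on metallothionein and Slc30a1 genes through metal response elements in their promoters. Intestinal epithelium takes up iron at its apical face and passes it to the blood through ferroportin, and the iron regulatory proteins adjust the mRNAs of the transferrin receptor, ferritin, and ferroportin to the iron content of the cell. Copper enters through CTR1 and is moved out or into the secretory pathway by the ATPases ATP7A and ATP7B.

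On the first principal component of all probe sets (29.4% of the variance), 2 arrays stood apart, BTWT replicate 2 and BTΔMAFF replicate 4. In 8 of the 39 metal genes (20.5%), these 2 mice were the lowest of the 8, and the same was true of 11.5% of all genes. In 7 metal genes (17.9%) they were the highest, against 41.8% of all genes. The same 2 arrays had the highest medians over all probe sets, 0.038 and 0.041, whose part in these shares was not tested.

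No metal gene passed the threshold after adjustment over all 45037 probe sets (limma, Benjamini-Hochberg), where 0% of probe sets passed, and the smallest adjusted p was 0.253, for Slc31a2. At an unadjusted p under 0.05 from limma, 2 of the 39 genes were higher in BTWT, Slc31a2 and Atp7a of the copper group. This compares with 2.35% of all genes. In the other direction, 2 were lower, Mt1 and the iron exporter Slc40a1, and 3.37% of all genes were. Such small counts stand close to the background and single out no direction for the list. Only Slc31a2 had groups that did not overlap, which was the case for 3.14% of all genes. The median log2 difference, BTWT minus BTΔMAFF, was 0.011 over the 39 genes and 0.019 over all genes. Of the 39 differences, 21 (53.8%) were positive, against 66.8% of all genes. Arrays were not centred on their medians for these values, and the part of unequal array medians in them was not tested. With such centring, the median difference over the 39 genes was -0.0065. The spread between mice was wider in the metal genes, with a median SD over the 8 arrays of 0.324 against 0.203 over all genes.

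**Figure D1:**
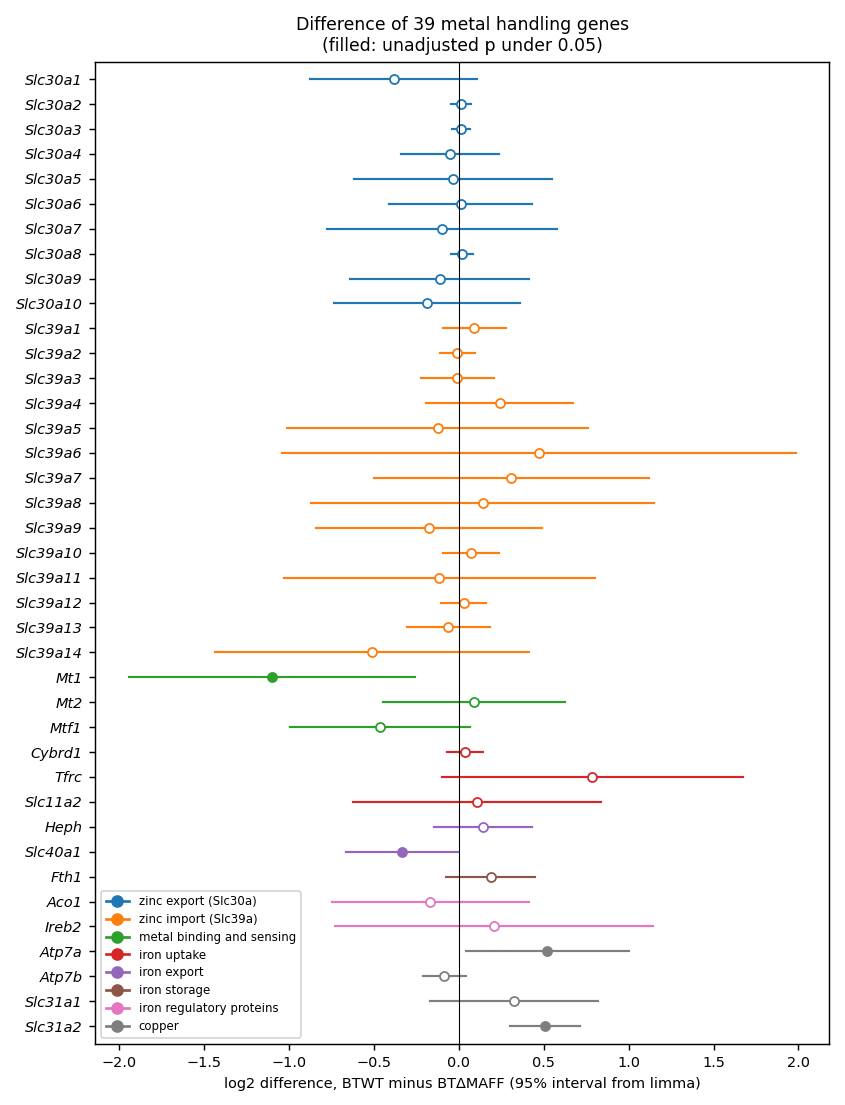
Log2 difference, BTWT minus BTΔMAFF, of 39 metal handling genes (points, 1 probe set per gene) with its 95% interval from limma (lines), grouped by role (colours). Filled points mark the 4 genes with an unadjusted p under 0.05, Mt1 and Slc40a1 to the left of 0 and Atp7a and Slc31a2 to the right.

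Metallothioneins are small cysteine-rich proteins that bind zinc and copper. Mt1 had the largest difference of all 39 genes in either direction. On the centred log2 scale it was at 0.034, -1.21, -0.35, and -1.28 in BTWT replicates 1 to 4 and at 0.25, -0.034, 0.96, and 0.42 in BTΔMAFF replicates 1 to 4. The groups touched at their edges, since BTWT replicate 1 lay just above BTΔMAFF replicate 2, while the other 3 BTWT mice lay below every BTΔMAFF mouse. In BTWT the mean was -0.70 ± 0.65 (SD, n = 4 mice), and in BTΔMAFF it was 0.40 ± 0.42 (SD, n = 4), so that BTWT was 2.14-fold lower. The log2 difference was -1.10 (standard error 0.36, 95% interval -1.94 to -0.26, unadjusted p = 0.0176 and adjusted p = 0.79 from limma). With any single array left out it stayed under an unadjusted p of 0.05 (largest unadjusted p = 0.0466, without BTWT replicate 2), but without both arrays that stood apart the log2 difference was -0.92 with an unadjusted p = 0.0971. The other Mt1 probe set differed by -0.27 in the same direction, with an unadjusted p = 0.121, so the size of the difference depended on the probe set.

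Mt2, the neighbouring metallothionein gene on chromosome 8, did not share the pattern of the representative Mt1 probe set. Its single probe set was at -0.025, -0.013, 0.48, and 0.013 in BTWT replicates 1 to 4 and at 0.099, -0.48, 0.54, and -0.065 in BTΔMAFF replicates 1 to 4. The values overlapped fully, and each group had 1 mouse, replicate 3, near 0.5. The log2 difference was 0.091 (standard error 0.23, 95% interval -0.44 to 0.63), and its sign changed without BTWT replicate 3 (-0.032) or BTΔMAFF replicate 2 (-0.077). The other Mt1 probe set was, like Mt2, highest in replicate 3 of each group (0.18 in BTWT and 0.57 in BTΔMAFF). Its difference of -0.27 lay within the Mt2 interval. A test of the 2 genes against each other was not run.

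The promoters of Mt1, Mt2, and Slc30a1 are shown because MTF-1 acts through them. Each sequence runs 5′ to 3′ on the strand of the gene, from 250 bases before to 30 bases after the start given by RefSeq (build GRCm38.p6, plus strand for all 3). Capitals mark the core of the metal response element, TGCACNC or TGCGCNC, or its reverse complement GNGTGCA or GNGCGCA. The windows are chr8:94178839-94179118 for Mt1, chr8:94172368-94172647 for Mt2, and chr1:191906531-191906810 for Slc30a1.
Mt1: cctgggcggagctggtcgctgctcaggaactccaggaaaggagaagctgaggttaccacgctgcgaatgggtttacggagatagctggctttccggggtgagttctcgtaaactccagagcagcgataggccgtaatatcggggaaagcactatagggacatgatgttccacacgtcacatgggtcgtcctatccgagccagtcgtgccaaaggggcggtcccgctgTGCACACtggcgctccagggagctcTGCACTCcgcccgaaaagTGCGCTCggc
Mt2: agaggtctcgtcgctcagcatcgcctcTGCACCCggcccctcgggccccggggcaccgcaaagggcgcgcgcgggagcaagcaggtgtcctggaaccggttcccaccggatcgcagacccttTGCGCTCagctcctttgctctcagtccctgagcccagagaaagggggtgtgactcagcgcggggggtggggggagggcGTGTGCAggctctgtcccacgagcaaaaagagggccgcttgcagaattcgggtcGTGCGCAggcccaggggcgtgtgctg
Slc30a1: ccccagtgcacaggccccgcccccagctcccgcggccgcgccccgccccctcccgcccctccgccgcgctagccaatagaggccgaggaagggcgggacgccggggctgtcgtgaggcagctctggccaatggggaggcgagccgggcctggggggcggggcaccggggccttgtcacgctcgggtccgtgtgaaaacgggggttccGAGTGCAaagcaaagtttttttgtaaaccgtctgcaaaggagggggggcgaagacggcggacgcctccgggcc
The Mt1 window held 3 such cores, 2 of them reaching past the given start, the Mt2 window held 4, and the Slc30a1 window held 1. Both metallothionein windows thus held several copies. The part of these cores in the values of the genes was not tested. At least 1 core was found in 24.1% of all 32851 promoter windows, at least 3 in 1.73%, and at least 4 in 0.405%. Of the 39 metal genes, 32 had a window in the table, and 18 of those (56.2%) held at least 1 core in any of their windows, against 26.6% of the 27025 genes in the table. Windows were not given for Heph, Slc11a2, Slc30a8, Slc39a4, Slc39a6, Slc39a14, and Slc40a1. A match is a description of the letters and does not show that the factor binds there.

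Mtf1, which encodes MTF-1, had 5 probe sets, of which 4 were lower in BTWT. Its representative was at -0.999, -0.27, 0.14, and -0.37 in BTWT replicates 1 to 4 and at -0.038, 0.097, 0.25, and 0.038 in BTΔMAFF replicates 1 to 4. Of the BTWT mice, 3 lay below every BTΔMAFF mouse, and replicate 3 lay among them. The log2 difference was -0.46 (standard error 0.22, 95% interval -0.99 to 0.066, unadjusted p = 0.0774 from limma). It passed an unadjusted p of 0.05 without BTWT replicate 3, at -0.63 with an unadjusted p = 0.0139. Without BTWT replicate 1, the lowest mouse, it was -0.26 with an unadjusted p = 0.109. A second probe set, with an SD over the 8 arrays of 0.401 against 0.403 for the representative, differed by -0.60 with an unadjusted p = 0.0107. In that probe set BTWT replicates 2, 3, and 4 were at -0.49, -0.38, and -0.39, replicate 1 was at 0.052, and the BTΔMAFF mice were at 0.39, -0.052, 0.62, and 0.22. The choice between 2 probe sets of nearly equal SD therefore decided whether Mtf1 counted as lower, and the mean of all 5 differed by -0.33 with an unadjusted p = 0.00742.

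**Figure D2:**
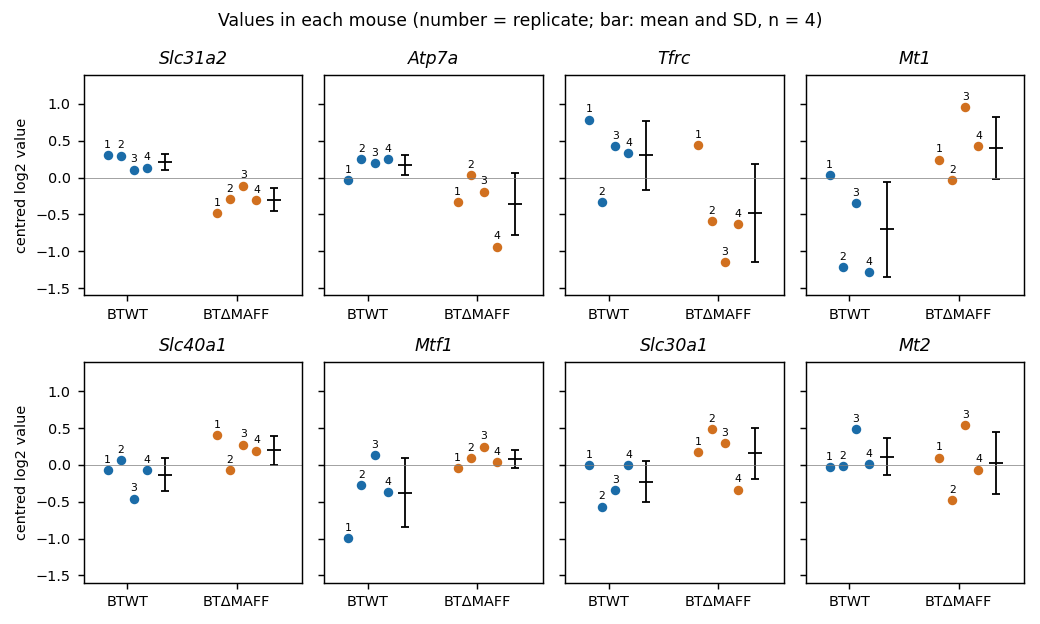
Centred log2 value of 8 metal handling genes in each mouse (points, numbered by replicate), with bars for each group's mean and SD (n = 4). Slc31a2 is higher in every BTWT mouse, Mt1, Mtf1, Slc40a1, and Slc30a1 have lower means in BTWT with overlapping groups, and Mt2 does not separate.

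None of the 10 Slc30a genes had an unadjusted p under 0.05, and 4 of their differences were positive. The largest was that of Slc30a1, the exporter of the plasma membrane and itself a target of MTF-1. It was at 0.0014, -0.57, -0.34, and -0.0014 in BTWT replicates 1 to 4 and at 0.18, 0.49, 0.29, and -0.33 in BTΔMAFF replicates 1 to 4. All BTWT mice lay below BTΔMAFF replicates 1, 2, and 3, and BTΔMAFF replicate 4 lay among the BTWT mice. The log2 difference was -0.38 (standard error 0.21, 95% interval -0.87 to 0.11, unadjusted p = 0.107), and it was -0.55 with an unadjusted p = 0.0177 without BTΔMAFF replicate 4. With other single arrays left out it was as small as -0.27 (without BTWT replicate 2, unadjusted p = 0.243). The other Slc30a1 probe set also had a negative difference, -0.15, with an unadjusted p = 0.0887.

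Slc30a9 and Slc30a6, a transporter of the Golgi, had their lowest value in BTΔMAFF replicate 4. Slc30a9 had a log2 difference of -0.11 over all mice and -0.34 (unadjusted p = 0.0073) without that mouse, where the other BTΔMAFF mice ranged from 0.10 to 0.36. Slc30a6 had one of 0.011 over all mice and -0.17 (unadjusted p = 0.0219) without it. Without BTΔMAFF replicate 4, 5.68% of all genes were higher and 5.16% lower at an unadjusted p under 0.05. Slc30a10, which exports manganese, had a difference of -0.19, and without both arrays that stood apart of -0.49 (unadjusted p = 0.027). Slc30a4, Slc30a5, and Slc30a7, which load zinc into vesicles and the secretory pathway, differed by -0.051, -0.035, and -0.099.

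Slc30a2, Slc30a3, and Slc30a8 hardly varied. Together with Slc39a2, Slc39a12, and Cybrd1, the ferric reductase of the iron-absorbing brush border, they made up 6 genes whose 8 values spanned at most 0.216 on the log2 scale. All 6 were highest in BTΔMAFF replicate 4, the array that also had the highest median over all probe sets (0.041). With each array centred on its own median, their widest span was 0.146. Cybrd1 had a log2 difference of 0.038, which was 0.075 without BTΔMAFF replicate 4 (unadjusted p = 0.0475). Flat values of this kind cannot show whether the gene was expressed without change or was not detected.

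Of the 9 genes with an SD across mice of at least 0.5, 6 were importers of the Slc39a family (Slc39a5, Slc39a6, Slc39a7, Slc39a8, Slc39a11, and Slc39a14). None of the 14 importers had an unadjusted p under 0.05, and 7 differences were positive. Slc39a6 had the largest SD over the 8 arrays of all 39 genes, 0.942. Its values, shown for that reason after they were seen, were 0.41, -1.39, 0.064, and 0.78 in BTWT replicates 1 to 4 and -0.093, 0.15, -0.064, and -2.01 in BTΔMAFF replicates 1 to 4. The 2 low values were those of the arrays that stood apart, 1 in each group. The log2 difference was 0.47 with a 95% interval from -1.04 to 1.99, but leaving out BTΔMAFF replicate 4 turned it to -0.030 and leaving out BTWT replicate 2 raised it to 0.92, and 2 of the 3 remaining probe sets also gave a positive one.

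Slc39a5, Slc39a7, Slc39a8, and Slc39a9 had the same 2 mice at the bottom. Slc39a7, which releases zinc from the endoplasmic reticulum, was at -0.76 in BTWT replicate 2 and -0.64 in BTΔMAFF replicate 4. Its log2 difference of 0.31 became 0.60 with an unadjusted p = 0.048 without BTWT replicate 2, and 0.14 with an unadjusted p = 0.713 without BTWT replicate 1. Slc39a8, an importer of zinc, manganese, and iron, was at -0.82 in both mice and between -0.24 and 0.69 in the others. Its groups overlapped, with a difference of 0.14 (95% interval -0.87 to 1.15).

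Slc39a14, an importer of zinc, iron, and manganese, had the most negative difference of the family. It was at -0.17, -0.57, -0.98, and 0.20 in BTWT replicates 1 to 4 and at 0.17, 0.58, 0.62, and -0.84 in BTΔMAFF replicates 1 to 4. As for Slc30a1, BTΔMAFF replicate 4 lay below the rest of its group. The log2 difference was -0.51 (standard error 0.39, 95% interval -1.44 to 0.42, unadjusted p = 0.234), and it was -0.83 with an unadjusted p = 0.0317 without that mouse. Without BTWT replicate 3 it was -0.31 with an unadjusted p = 0.468. All 3 other probe sets were also lower in BTWT. Slc39a4, the importer of dietary zinc at the apical membrane, was at 0.047, -0.11, -0.047, and 0.47 in BTWT replicates 1 to 4 and at -0.37, 0.082, 0.12, and -0.43 in BTΔMAFF replicates 1 to 4. The groups overlapped, with a difference of 0.24 (95% interval -0.19 to 0.67). The other 9 importers had differences between -0.18 and 0.092, with Slc39a9 and Slc39a1 at the ends.

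**Figure D3:**
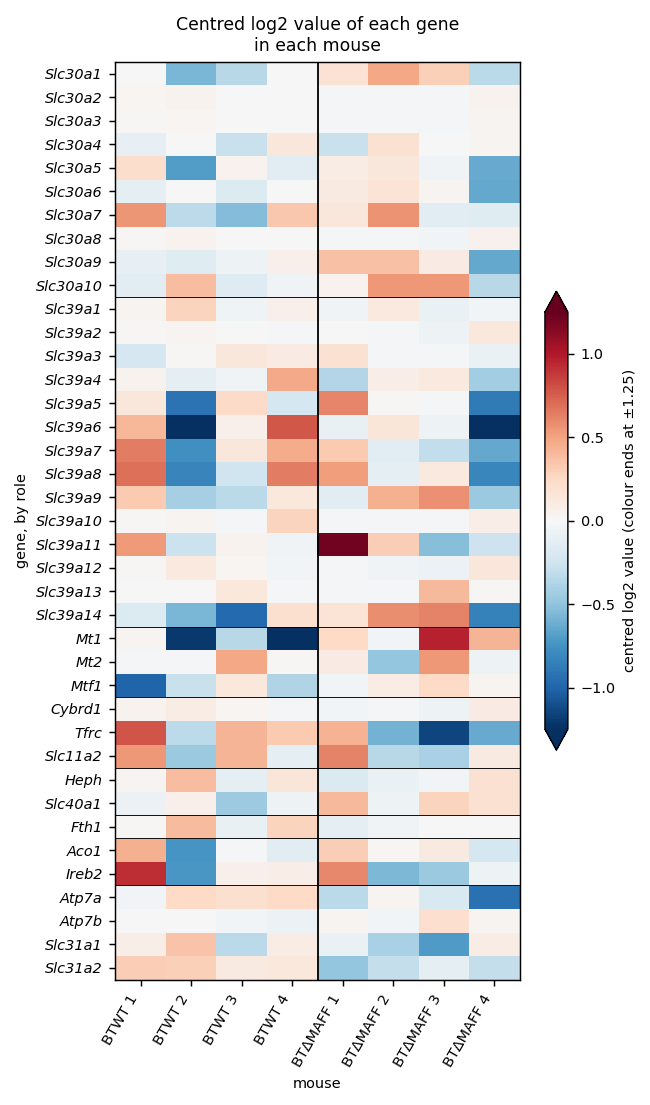
Centred log2 value (colour) of 39 metal handling genes (rows, by role) in each of 8 mice (columns, BTWT left of the line). BTWT 2 and BTΔMAFF 4 are both blue for Slc39a5, Slc39a6, Slc39a7, and Slc39a8, and Slc31a2 is red in BTWT and blue in BTΔMAFF.

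Among genes of iron uptake, all 3 had positive differences, as did 66.8% of all genes, and none had an unadjusted p under 0.05. Tfrc, the receptor by which cells take up transferrin-bound iron, had the largest positive difference of the 39 genes. It was at 0.79, -0.33, 0.42, and 0.33 in BTWT replicates 1 to 4 and at 0.44, -0.59, -1.15, and -0.63 in BTΔMAFF replicates 1 to 4. Thus 3 BTΔMAFF mice lay below all BTWT mice, and BTΔMAFF replicate 1 lay among the high ones. Tfrc was 1.72-fold higher in BTWT (log2 difference 0.79, standard error 0.38, 95% interval -0.10 to 1.67, unadjusted p = 0.0745 and adjusted p = 0.828 from limma). It reached unadjusted p = 0.0086 without BTΔMAFF replicate 1 (difference 1.09) and unadjusted p = 0.037 without BTWT replicate 2 (difference 0.997). Without BTΔMAFF replicate 3, the lowest mouse, it was 0.56 with an unadjusted p = 0.175. Its 2 other probe sets differed by 0.73 and 0.62, with an unadjusted p = 0.0804 and 0.0825. Dividing cells are known for high transferrin receptor, and markers of dividing crypt cells moved in the same direction. Of 5 measured, 4 (Mki67, Top2a, Cdk1, and Birc5) were higher in BTWT at an unadjusted p under 0.05, against 2.35% of all genes. The mean of the list ranged from 0.066 to 0.877 in BTWT and from -0.591 to -0.0764 in BTΔMAFF. The part of dividing cells in the Tfrc values was not tested.

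Slc11a2 (DMT1), the apical importer of ferrous iron, was at 0.54, -0.46, 0.42, and -0.11 in BTWT replicates 1 to 4 and at 0.62, -0.35, -0.41, and 0.11 in BTΔMAFF replicates 1 to 4. The groups overlapped, and the difference was 0.11 (95% interval -0.62 to 0.84), with a range from -0.042 to 0.31 when single arrays were left out.

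Slc40a1 encodes ferroportin, the iron exporter. Its representative probe set was at -0.072, 0.067, -0.46, and -0.067 in BTWT replicates 1 to 4 and at 0.40, -0.067, 0.28, and 0.20 in BTΔMAFF replicates 1 to 4. BTΔMAFF replicates 1, 3, and 4 lay above all BTWT mice, while BTΔMAFF replicate 2 lay among them. The value in BTWT was 1.26-fold lower (log2 difference -0.33, standard error 0.14, 95% interval -0.66 to -0.0032, unadjusted p = 0.0484 and adjusted p = 0.828 from limma). The other probe set gave -0.34 with an unadjusted p = 0.0117. For the representative, the p was over 0.05 without BTWT replicate 1 (0.0703), 3 (0.0949), or 4 (0.0699), without BTΔMAFF replicate 1 (0.117), 3 (0.104), or 4 (0.0882), and by the methods' unpaired test (0.0679). Ferroportin is also abundant in macrophages. Of 8 measured macrophage markers none had an unadjusted p under 0.05, and the mean of the list ranged from -0.026 to 0.117 in BTWT and from -0.038 to 0.175 in BTΔMAFF. Apart from Csf1r and C1qb, all values of these markers lay between -0.086 and 0.083, too flat to show whether macrophage RNA was present. Csf1r differed by -0.52, with BTΔMAFF replicate 3 at 1.75, and C1qb by 0.19. The part of macrophages in the Slc40a1 values was not tested. Heph, the ferroxidase that works with ferroportin, had a difference of 0.14 (95% interval -0.15 to 0.43).

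Iron storage and its regulators did not separate the groups. Fth1, the heavy chain of ferritin, was at 0.011, 0.40, -0.094, and 0.28 in BTWT replicates 1 to 4 and at -0.11, -0.044, 0.0090, and -0.0090 in BTΔMAFF replicates 1 to 4. BTWT replicates 1, 2, and 4 lay above every BTΔMAFF mouse, and replicate 3 lay among them. The difference was 0.19 (95% interval -0.07 to 0.45, unadjusted p = 0.132), and 0.27 with an unadjusted p = 0.0292 without BTWT replicate 3. Without BTWT replicate 2, the highest mouse, it was 0.10 with an unadjusted p = 0.297. The other Fth1 probe set differed by 0.06. Aco1 and Ireb2 encode iron regulatory proteins, and they differed by -0.17 and 0.21, each with values of both groups intermixed.

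Of the 4 copper genes, 3 had positive differences, as did 66.8% of all genes. The groups did not overlap in 1 of the 4, Slc31a2, and in 3.14% of all genes. Slc31a2 (CTR2), a relative of the copper importer found in internal membranes, was at 0.30, 0.30, 0.11, and 0.14 in BTWT replicates 1 to 4 and at -0.48, -0.29, -0.11, and -0.30 in BTΔMAFF replicates 1 to 4. The groups did not overlap, and replicate 3 of BTWT and replicate 3 of BTΔMAFF were the closest pair between them. In BTWT the mean was 0.21 ± 0.10 (SD, n = 4 mice), and in BTΔMAFF it was -0.30 ± 0.15 (SD, n = 4), so that BTWT was 1.42-fold higher (log2 difference 0.51, standard error 0.088, 95% interval 0.30 to 0.72). The unadjusted p was 6.55e-04 and the adjusted p 0.253 from limma. With single arrays left out the difference ranged from 0.45 to 0.57 and the p from 2.88e-04 to 0.00273, and without both arrays that stood apart the difference was 0.48 with an unadjusted p = 0.00967. The second probe set differed by 0.38 with an unadjusted p = 0.0279, although its groups overlapped.

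Atp7a, the ATPase that exports copper, was at -0.036, 0.25, 0.20, and 0.25 in BTWT replicates 1 to 4 and at -0.34, 0.036, -0.19, and -0.94 in BTΔMAFF replicates 1 to 4. BTWT replicate 1 lay below BTΔMAFF replicate 2, and the lowest mouse, BTΔMAFF replicate 4, was 1 of the arrays that stood apart. Atp7a was 1.44-fold higher in BTWT (log2 difference 0.52, standard error 0.20, 95% interval 0.042 to 1.00, unadjusted p = 0.0369 and adjusted p = 0.828 from limma). The p was over 0.05 without BTWT replicate 2 (0.0794), 3 (0.0734), or 4 (0.08) or BTΔMAFF replicate 1 (0.0657). Without BTΔMAFF replicate 4 the difference was 0.33 (unadjusted p = 0.0275). Without both arrays that stood apart it was 0.30 with an unadjusted p = 0.0681. The other Atp7a probe set differed by 0.097 with an unadjusted p = 0.497. Slc31a1 (CTR1), the importer of copper at the cell surface, was at 0.086, 0.35, -0.33, and 0.095 in BTWT replicates 1 to 4 and at -0.086, -0.40, -0.70, and 0.095 in BTΔMAFF replicates 1 to 4. The groups overlapped, with a difference of 0.32 (95% interval -0.17 to 0.82). Atp7b, the second copper ATPase, differed by -0.086 (95% interval -0.21 to 0.04), and both remaining probe sets pointed the other way.

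**Figure D4:**
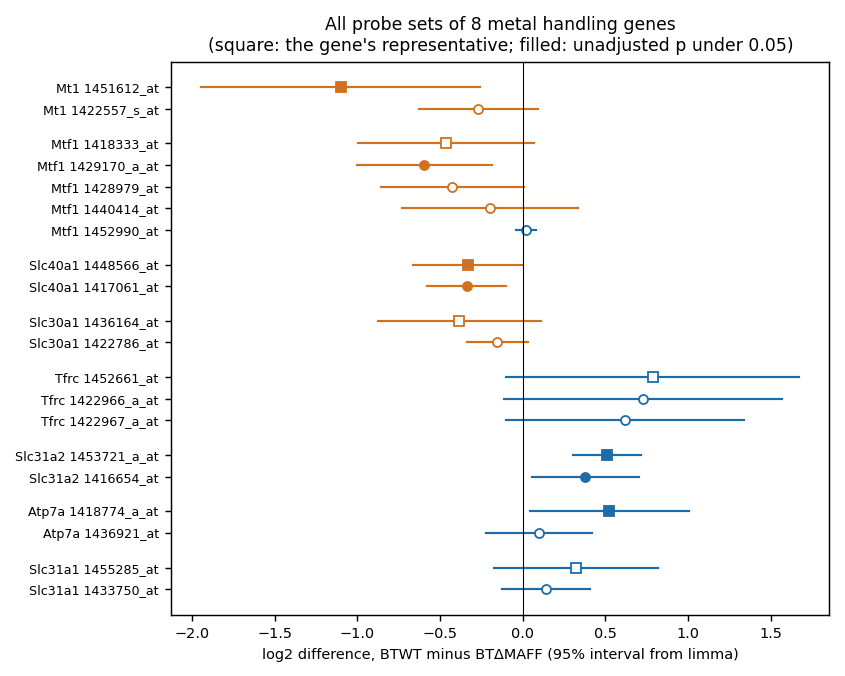
Log2 difference, BTWT minus BTΔMAFF, with 95% interval from limma, for every probe set of 8 metal handling genes (squares, the probe set that stood for the gene; filled, unadjusted p under 0.05). Both probe sets of Slc31a2 and of Slc40a1 are filled, whereas for Mt1 and Atp7a only the representative is, and for Mtf1 only another one.

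Of the 39 genes, 17 had a single probe set and 22 had more than 1. In 17 of the 22, all other probe sets had the sign of the representative.

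A list of 55 further genes of iron, copper, heme, and zinc handling held 51 that were measured. At an unadjusted p under 0.05, 0 of them were called by limma and 0 by the methods' unpaired test. Of all genes, 5.72% and 4.22% were called by these tests. The median log2 difference was 0.017, and 31 were positive. Steap3, a ferrireductase that acts on iron from the transferrin cycle, had the largest positive difference (0.64, 95% interval -0.28 to 1.57). The metallothionein Mt4 had the most negative (-0.57, 95% interval -1.90 to 0.76), which rested on BTΔMAFF replicate 1 at 2.40, and Slc25a37, the mitochondrial iron importer, had one of -0.46 with an unadjusted p = 0.0776. Hmox1, the heme-degrading enzyme, differed by -0.23 (95% interval -0.57 to 0.11), and Lcn2, which captures bacterial siderophores, by 0.021 (95% interval -0.048 to 0.091). All Lcn2 values lay between -0.039 and 0.059, too flat to show whether it was expressed without change or was not detected. These 5 genes were picked after their values were seen, and every interval included 0.

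Cell type markers were read as differences only, since centred values hold no level by which to check the sort. Of 6 epithelial markers, Krt19 and Vil1 had an unadjusted p under 0.05, both lower in BTWT, and the mean of the list ranged from -0.075 to 0.026 in BTWT and from 0.017 to 0.109 in BTΔMAFF. None of 8 leukocyte markers (-0.017 to 0.111 in BTWT, -0.051 to 0.156 in BTΔMAFF) and none of 9 mesenchymal and endothelial markers (-0.303 to 0.222, and 0.036 to 0.768) had an unadjusted p under 0.05. Apart from Ms4a1 and Cd8a, all leukocyte marker values lay between -0.047 and 0.074, too flat to show whether leukocyte RNA was present. Of 6 surface colonocyte markers, Ceacam20 was higher and Krt20 and Slc26a3 lower (-0.163 to 0.092, and -0.073 to 0.12). Of 6 goblet cell markers, Agr2 was higher and Fcgbp and Clca1 lower (-0.306 to 0.203, and 0.012 to 0.326). Over all genes, 2.35% were higher and 3.37% lower at an unadjusted p under 0.05 from limma. Mean marker values overlapped between the groups in all of these lists, but not for dividing crypt cells. The groups did not overlap in 3.14% of all genes. Of the 6 epithelial markers, Vil1 (log2 difference -0.40) was lower in every BTWT mouse than in any BTΔMAFF mouse. So were Krt20 (-0.32) and Slc26a3 (-0.48) of the 6 surface colonocyte markers, and Fcgbp (-0.67) and Clca1 (-0.90) of the 6 goblet cell markers. Of the 5 dividing crypt cell markers, Top2a (1.02), Cdk1 (1.08), and Birc5 (1.15) were higher in every BTWT mouse than in any BTΔMAFF mouse. The groups overlapped for Krt19 (-0.22), Ceacam20 (0.38), Agr2 (0.55), and Mki67 (0.60). RNA quality was read from the Gapdh controls as 3-prime minus 5-prime. In BTWT this was -0.11 ± 0.14 (SD, n = 4 mice), against 0.0054 ± 0.16 (SD, n = 4) for BTΔMAFF (two-sided exact permutation test, p = 0.314, where 0.0286 is the smallest that 4 against 4 allow). The same reading of the beta-actin controls was -0.036 ± 0.020 (SD, n = 4 mice) in BTWT, and BTΔMAFF had 0.034 ± 0.051 (SD, n = 4), with an exact permutation p = 0.0857. For beta-actin, BTΔMAFF replicates 2, 3, and 4 lay above all BTWT mice. The part of cell makeup or RNA quality in the differences of Mt1, Slc40a1, Atp7a, and Slc31a2 was not tested.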

How the data were processed

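Colonic epithelial cells of 4 BTWT and 4 BTΔMAFF mice were measured on Affymetrix Mouse Genome arrays, 1 per mouse, and arrays were grouped by sample title. The authors deposited log2 values for 45101 probe sets, each with its median over the 8 arrays set to 0. GeneSpring is named in the methods and Affymetrix Expression Console in the submitters' notes. For background correction and normalization, no method is given in the sources used here.

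Without the 64 control probe sets, 45037 were tested for BTWT minus BTΔMAFF using lmFit and eBayes of limma 3.58.1 (R 4.3.3), with no covariate. Adjustment was by Benjamini-Hochberg over all of them. Values have no level, so no filter on dim probe sets was possible, and a filter on the SD took its place. A gene was called at an unadjusted p under 0.05. The study set such a threshold on its arrays together with a fold cut, which was not applied here and which, of the called genes, only Mt1 would pass. All 39 genes were matched by gene ID to RefSeq (GRCm38.p6), which changed 0 symbols. The procedure was tested on simulated data. Precision is limited by how many arrays there were. The members and lists were chosen with earlier results of these data known, and no p was adjusted over a list.

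By rule, values in every mouse are given for genes with an unadjusted p under 0.05, genes whose groups did not overlap, the 3 largest differences in each direction, and reference genes of each role. Other genes are named because a left-out array changed their call or because of their spread, and were chosen after their values were seen. Alternatives were quantile normalization, centring of arrays, array weights, the replicate block, leaving out arrays, the methods' unpaired test, other choices of probe set, a robust prior, and a filter on the SD.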

Additional observations from a re-analysis of the deposited data

Results flagged for a closer look

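Within each group of 4 mice, a single value was sought whose gap to the nearest other value, as a share of the group's whole range, exceeded Dixon's 95% critical value. Of 78 groups (39 genes in 2 groups), 9 had one, where chance gives about 5% of groups. BTΔMAFF replicate 4 accounted for 5. It was low for Slc39a6 (-2.01, others -0.093 to 0.149) and Slc30a6 (-0.638, others 0.035 to 0.17), and slightly high for Slc30a2 (0.046), Slc30a3 (0.038), and Slc39a10 (0.083), genes that varied little. Slc39a10 was also high in BTWT replicate 4 (0.277, others at most 0.03). Mt2 was at 0.483 in BTWT replicate 3, with the other BTWT mice between -0.025 and 0.013. Slc39a13 was at 0.404 in BTΔMAFF replicate 3, with the others at most 0.011. Atp7a was at -0.036 in BTWT replicate 1, with the others between 0.202 and 0.249.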

How the results depend on the processing

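The list's counts were small and moved with most settings. Of the 4 called genes, Slc31a2 was called under all 18 alternatives, Mt1 under 16, Atp7a under 9, and Slc40a1 under 7, and none changed sign. Genes higher in BTWT numbered 2, and 1 with arrays centred on their medians, without both arrays that stood apart, by the methods' unpaired test, and with probe sets without a suffix preferred. With 1 array left out they numbered 1 to 3 (1.84% to 5.68% of all genes). Over all genes, 1.96% were higher with centring, 7.55% without both arrays, 1.69% by the methods' test, and 2.22% with the probe sets preferred. Genes lower numbered 2, and 6 with array weights (10.1% of all genes), 4 without both arrays (4.47%), and 1 by the methods' test (2.53%) and with a robust prior (3.18%). The SD filter kept 29 of the 39 genes, of which 1 was lower (5.43% of the 10495 genes kept over the array). With every probe set counted, 4 were lower (3.32% of single-gene probe sets). With 1 array left out they numbered 1 to 5 (2.57% to 5.16% of all genes). After adjustment 0 passed, and 1 (Slc31a2) with array weights, under which 510 probe sets passed over the whole array. Array weights gave BTWT replicate 3 and BTΔMAFF replicate 2 weights of 4.68 and 4.36 against at most 1.33 for the others. With 1 array left out it was 0 throughout.

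Groups did not overlap in 1 gene, and in 11 without both arrays (43.2% of all genes). They did not overlap in 4 with the mean of all probe sets (3.74%) and in 0 with probe sets without a suffix preferred (3.02%). With 1 array left out the count was 1 to 9. The 9 came without BTΔMAFF replicate 4, where 40.9% of all genes did not overlap. Without any other single array, 4.23% to 5.72% of all genes did not overlap. The median difference was 0.011, -0.035 over the 29 genes that the SD filter kept, and -0.030 (without BTΔMAFF replicate 4) to 0.032 with 1 array left out. Of the 51 further metal genes 0 were called, against 11 with array weights (26.9% of all genes) and 3 without both arrays (12.0%). The count was 1 with the mean of all probe sets (6.77%) and 2 with every probe set counted (5.78%). With 1 array left out it was 0 to 3 (4.4% to 10.8% of all genes). Slc30a6 turned to a called negative difference with array weights (-0.25), without BTΔMAFF replicate 4 (-0.17), and without both arrays (-0.19), and ranged from -0.17 to 0.095 with 1 array left out. The cause of these changes was not tested. The Gapdh difference of -0.12 ranged from -0.18 to -0.061 with 1 array left out.

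Same-numbered mice did not deviate together throughout (r = 0.39, -0.04, 0.033, and -0.27 over all probe sets for replicates 1 to 4). The largest r between the groups was 0.46, for BTWT replicate 2 and BTΔMAFF replicate 4, the arrays that stood apart. These values gave no ground for pairing by number, but so few correlations cannot exclude it. With the replicate block 3 genes were higher, 2 lower, and 2 further metal genes called, where 6.90% of all genes were called. Tfrc and Mtf1 were then called (unadjusted p = 0.0360 and 0.0361) and Slc40a1 was not (unadjusted p = 0.0977), while Slc31a2, Atp7a, and Mt1 were called with and without it.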
